A study of Mus musculus with 6 samples.

Results

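Elastic fibre and microfibril genes were followed as a group of 10 in the mouse pre-osteoblast line MC3T3-E1, with and without knockdown of Hdac4, the gene of a class IIa histone deacetylase. The members were chosen by name as the genes of the fibre's core proteins and of the proteins that build its scaffold: Eln, Fbn1, Fbn2, Fbln1, Fbln2, Fbln5, Efemp2, Mfap2, Mfap4 and Mfap5. All 10 were found among the 53801 genes counted. Of them, 6 had enough counts to be tested and 4 (Eln, Fbn2, Mfap2 and Mfap4) did not pass the filter on low counts.

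An elastic fibre is a core of cross-linked elastin laid on a scaffold of microfibrils. Microfibrils are polymers of fibrillin that carry microfibril-associated glycoproteins, and they also occur without elastin. Fibulins are secreted glycoproteins that bridge tropoelastin, fibrillin, the cross-linking enzymes and the cell surface. In bone, where little elastin is laid down, fibrillin microfibrils are known for holding latent TGF-beta and BMP complexes in the matrix.

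Both groups were MC3T3-E1 cells infected with a lentiviral vector that carries ZsGreen1 and puromycin resistance, and both were selected with 5 μg/ml puromycin for 7 days. The Control group expressed a scrambled non-silencing RNA and the Hdac4-knockdown group an Hdac4 short hairpin RNA, which the study's text names as Hdac4-shRNA3, driven by the U6 promoter. Each group was 3 independent RNA samples of its cell line, which the study calls biological replicates. The sources do not say whether these came from separate infections or cultures, and p-values measure the spread between these samples. The knockdown group holds 1 hairpin, so that loss of Hdac4 and anything particular to this hairpin or this selected line cannot be told apart. The targeting sequences, written as DNA in the sense of the target, are shown because they are the only difference by design between the groups.
Hdac4-shRNA3: gcatgaggcacagttgcatga
scrambled: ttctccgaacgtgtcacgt

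Poly-A RNA was sequenced without strand information, and reads counted on genes numbered 29096544 to 31651826 per library. Libraries of the same group differed by 3.23 to 8.36 times the sampling noise (chi-square per degree of freedom), and none was a copy of another. Hdac4 was counted 1243, 1204 and 1136 times in Control and 950, 927 and 887 times in Hdac4-knockdown libraries, a fall to 73.6% of the Control level (adjusted p = 8.98e-07 by edgeR's quasi-likelihood test). Of the pre-osteoblast markers, Runx2 was at 65.3 to 74.6 CPM (normalized counts, scaled to library size) in Control and 73.0 to 82.9 CPM in knockdown libraries, whereas Alpl had no more than 3 counts in any library. Sp7 had 4, 7 and 2 counts in Control and 74, 112 and 68 in knockdown libraries. Bglap (0, 1 and 1 against 3, 12 and 6 counts) and Ibsp (0, 0 and 0 against 4, 6 and 7) were low in both groups. In Control libraries the label of a pre-osteoblast line therefore rests on Runx2, Spp1, Col1a1 and Dmp1 (101, 113 and 104 counts). It does not rest there on Alpl, Sp7, Bglap or Ibsp.

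Changes are given as log2 fold changes of Hdac4-knockdown over Control from edgeR's quasi-likelihood test, with p-values adjusted by Benjamini-Hochberg over all 14531 genes tested. A gene was called higher or lower where the adjusted p was below 0.05 and the size of its log2 fold change above 0.05. Of the 6 tested members, 5 were called higher and 1 lower. Among all genes tested, 38.0% were called higher and 37.1% lower, so that a call alone sets the members little apart. Beyond a log2 fold change of 1, 4 members were higher, against 16.5% of all genes, and 1 was lower, against 10.6%. The median log2 fold change was 1.26 over the 6 members and 0.01 over all genes. The members were chosen with earlier results of these data known, so these shares and medians are description only. In all 6 the Control and knockdown libraries did not overlap, which held for 76.8% of all genes. Each of the 6 had at least 67 counts in every library, so none passed the filter through 1 group alone. In bulk RNA of this kind, fewer cells of a type and less RNA per cell cannot be told apart.

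Fbn1 encodes fibrillin-1, the main structural protein of microfibrils. It lies on chromosome 2, minus strand, from 125300594 to 125507993 (GRCm38). Its level was 173, 178 and 184 CPM in Control libraries and 203, 201 and 194 CPM in knockdown libraries. The knockdown libraries lay above the Control libraries by a small margin, from 179 ± 5.66 to 199 ± 4.48 CPM (SD, n = 3). The log2 fold change was 0.16 (SE 0.0413, 95% interval 0.07 to 0.24, adjusted p = 0.00206), and 41.3% of all genes had a higher one. Fbn1 was thus called, but its change of 1.11-fold was smaller than that of the other tested members. Of its 12128 exon bases, 2442 are shared with Gm9913 on the opposite strand. Reads shared between genes were left out, so the level of Fbn1 may be underestimated.

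Fbn2 encodes fibrillin-2, the fibrillin of early development, on chromosome 18. No read was counted on it in any Control library, and 3, 3 and 5 were counted in the knockdown libraries. The knockdown libraries were therefore at or just above the limit of 3 counts that a count of 0 allows, which is 0.0931 to 0.105 CPM depending on the library. Nearly all fibrillin mRNA counted in either group was thus from Fbn1: per kb of exon, Fbn1 was at least 1909-fold above the level that 3 counts of Fbn2 would give in each Control library. Summed over the knockdown libraries, 18580 Fbn1 and 11 Fbn2 counts gave a ratio per kb of 1840 (exact 95% interval 1028 to 3688, for counting error only).

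Mfap5 encodes MAGP-2, a small glycoprotein of microfibrils that binds fibrillin and carries an integrin-binding motif. It lies on the plus strand of chromosome 6 from 122505845 to 122529290. Its counts were 67, 70 and 82 in Control libraries and 258, 253 and 200 in knockdown libraries. The level rose from 2.47 ± 0.36 to 7.61 ± 0.872 CPM (SD, n = 3), with every knockdown library above every Control library. The log2 fold change was 1.63 (SE 0.149, 95% interval 1.32 to 1.94, adjusted p = 6.52e-09), or 3.08-fold. Its standard error was the largest and its counts the fewest of the 6 tested members.

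Mfap2 encodes MAGP-1, which shares with MAGP-2 the domain that binds fibrillin, and Mfap4 encodes a fibrinogen-related glycoprotein found with elastic fibres. Mfap2 had 2, 3 and 1 counts in Control libraries and 2, 2 and 0 in knockdown libraries. Mfap4 had no count in 5 of 6 libraries and 2 counts in Hdac4-knockdown replicate 2. Neither was detectable above the limit of 3 counts in any library, so a difference between groups could not be seen at this depth. Summed over a group's libraries and taken per kb of exon, Mfap5 exceeded Mfap2 12.3-fold in Control (219 against 6 counts, exact 95% interval 5.57 to 33.9) and 60.0-fold in knockdown libraries (711 against 4 counts, interval 23.3 to 221). These intervals cover counting error only. Mfap5 was at least 12.0-fold to 14.6-fold above the level that 3 counts of Mfap4 would give in each Control library. Of the 3 microfibril-associated genes, Mfap5 was thus the one detected above this limit in either group.

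Fbln5 encodes fibulin-5, an integrin-binding fibulin that tethers tropoelastin to microfibrils. It lies on chromosome 12, minus strand, from 101746565 to 101819055. Its counts were 131, 160 and 143 in Control libraries and 1984, 2130 and 1856 in knockdown libraries. The level rose from 4.88 ± 0.542 to 64.0 ± 2.22 CPM (SD, n = 3). Fbln5 had the largest change of the 6 tested members, a log2 fold change of 3.71 (SE 0.0781, 95% interval 3.55 to 3.88, adjusted p = 4.67e-19), or 13.1-fold. Of all genes tested, 3.20% had a higher log2 fold change.

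Fbln2 encodes fibulin-2, a larger fibulin that binds fibrillin-1, tropoelastin and basement membrane proteins. It lies on the plus strand of chromosome 6 from 91212455 to 91272540. Its level was 265, 277 and 276 CPM in Control libraries and 703, 765 and 715 CPM in knockdown libraries. The groups were far apart, at 273 ± 6.61 and 727 ± 33.0 CPM (SD, n = 3). The log2 fold change was 1.41 (SE 0.0415, 95% interval 1.33 to 1.5, adjusted p = 9.43e-17), or 2.67-fold.

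Efemp2 encodes fibulin-4, which binds tropoelastin and lysyl oxidase and is required for elastic fibre assembly in mice. It lies on the plus strand of chromosome 19 from 5473954 to 5482517. Its level was 123, 122 and 118 CPM in Control libraries and 245, 268 and 266 CPM in knockdown libraries. The mean rose from 121 ± 2.48 to 259 ± 12.8 CPM (SD, n = 3), a log2 fold change of 1.10 (SE 0.0444, 95% interval 1.00 to 1.19, adjusted p = 1.61e-14), or 2.14-fold. Of its 3788 exon bases, 173 are shared with Mus81.

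Fbln1 encodes fibulin-1, which binds fibronectin, laminin and tropoelastin and is found within elastic fibre cores. It lies on the plus strand of chromosome 15 from 85205949 to 85286535. Its counts were 1835, 1829 and 1627 in Control libraries and 350, 328 and 368 in knockdown libraries. Fbln1 was the 1 tested member that fell, from 59.4 ± 2.09 to 11.2 ± 1.03 CPM (SD, n = 3), or to 18.9% of the Control level. The log2 fold change was -2.40 (SE 0.0697, 95% interval -2.55 to -2.26, adjusted p = 7.85e-17), and 2.97% of all genes had a lower one. The fibulins among the members therefore moved in opposite directions, Fbln2, Fbln5 and Efemp2 upwards and Fbln1 downwards.

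Eln encodes tropoelastin, the soluble monomer of elastin. It lies on chromosome 5, minus strand, from 134702593 to 134747323. No Eln read was counted in the 3 Control libraries, and 2, 0 and 1 were counted in the knockdown libraries. Every library was therefore at or below the limit of 3 counts, and no fold change can be given. The mRNA of the elastin core was thus not detectable above this limit in either group. Because Eln, Fbn2, Mfap2 and Mfap4 could not be tested, core and microfibril genes cannot be compared for change. The microfibril genes tested were Fbn1, which differed by 1.11-fold, and Mfap5.

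Pairs of fibulin genes were also compared as ratios within a library, which do not depend on the scaling between libraries. The log2 ratio of Fbln1 to Fbln2 per kb of exon was -1.60, -1.64 and -1.73 in Control and -5.41, -5.69 and -5.32 in knockdown libraries. Fbln2 was 3.15-fold above Fbln1 in Control and 44.4-fold above it in knockdown libraries, a difference in mean log2 ratio of -3.82. The log2 ratio of Efemp2 to Fbln5, the fibulin genes whose products carry tropoelastin, was 5.70, 5.38 and 5.42 in Control and 2.80, 2.89 and 2.97 in knockdown libraries. Efemp2 exceeded Fbln5 45.3-fold in Control and 7.39-fold in knockdown libraries, a difference of -2.62. The folds within a group depend on exon lengths joined over all annotated transcripts of a gene, whereas the differences between groups do not. For both ratios the groups did not overlap and the two-sided exact permutation test gave p = 0.1, the smallest value that 3 libraries against 3 allow. The same test gave the same value for each of the 6 tested members.

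Levels of different members can be set side by side only per length, here that of all annotated exons of a gene joined. This length can exceed that of the mRNA made, so the order below depends on the annotation. In CPM per kb of exon, the order in Control libraries was Fbln2 at 42.8 ± 1.04, Efemp2 at 32.0 ± 0.654, Fbn1 at 14.7 ± 0.467, Fbln1 at 13.6 ± 0.478, Fbln5 at 0.707 ± 0.0784 and Mfap5 at 0.688 ± 0.1 (SD, n = 3). Fbln5 and Mfap5 did not differ beyond their spread there. In knockdown libraries the order was Fbln2 at 114 ± 5.18, Efemp2 at 68.5 ± 3.37, Fbn1 at 16.4 ± 0.370, Fbln5 at 9.25 ± 0.322, Fbln1 at 2.57 ± 0.235 and Mfap5 at 2.12 ± 0.243 (SD, n = 3). Fbln1 and Mfap5 were neighbours in this order, with ranges that nearly met. Fbln5 and Fbln1 had changed places, and Fbln2 and Efemp2 led in both groups. Among the 14521 tested genes with an exon length, Fbln2 moved from rank 1208 to rank 325, Fbln5 from rank 11249 to rank 5062 and Fbln1 from rank 3917 to rank 9208.

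Summed over the 10 genes, the level was 103, 106 and 104 CPM per kb in Control and 206, 221 and 212 CPM per kb in knockdown libraries, or 2.04-fold higher. Of this sum, Fbln2 made 41.0% ± 0.621 in Control and 53.6% ± 0.631 in knockdown libraries (SD, n = 3). Fbln1 went from 13.0% ± 0.427 to 1.21% ± 0.141, and Fbln5 from 0.675% ± 0.067 to 4.34% ± 0.15. The share of Fbn1 went from 14.1% ± 0.417 to 7.71% ± 0.350, although its own level did not fall. The share of Efemp2 was 29.9% to 31.4% in Control and 31.4% to 33.1% in knockdown libraries, so that the ranges met at their ends. These shares are sums of mRNA per exon length, depend on the annotated exons and say nothing of the protein made.

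**Figure D1:**
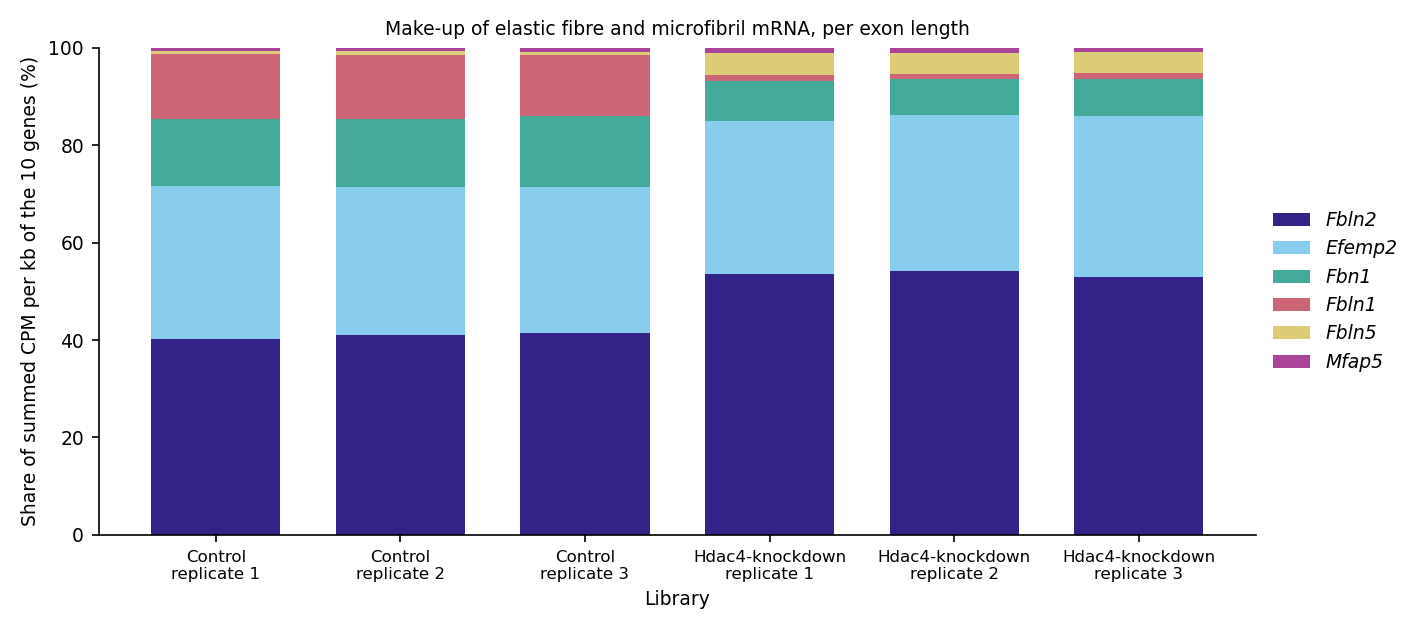
Share of each gene in the summed CPM per kb of exon of the 10 elastic fibre and microfibril genes, in percent, as 1 stacked bar for each Control and Hdac4-knockdown library; genes at or under 5 counts are not visible. The Fbln1 band shrinks from 13.0% to 1.21% and the Fbln5 band widens from 0.675% to 4.34%, while Fbln2 and Efemp2 fill most of every bar.

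Promoter sequence was taken from RefSeq (GRCm38.p6) as windows of 250 bases before and 50 after each annotated start. Of the 10 members, 6 were matched (Fbn1, Fbln1, Fbln2, Fbln5, Efemp2 and Mfap2), with 11 windows. The 250 bases before the start are shown for Fbln5 and Efemp2, which rose, and Fbln1, which fell; in these windows none of the 250 bases lies in an annotated exon. They read 5′ to 3′ on the gene's strand, at chr12:101819120-101819369 (minus), chr19:5473696-5473945 (plus) and chr15:85205699-85205948 (plus), with GC boxes (GGGCGG, on either strand) in capitals.
Fbln5: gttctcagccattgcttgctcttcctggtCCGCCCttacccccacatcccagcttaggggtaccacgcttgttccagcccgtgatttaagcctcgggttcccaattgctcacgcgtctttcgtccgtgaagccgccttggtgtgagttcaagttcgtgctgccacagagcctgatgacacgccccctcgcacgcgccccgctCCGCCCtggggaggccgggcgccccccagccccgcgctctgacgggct
Efemp2: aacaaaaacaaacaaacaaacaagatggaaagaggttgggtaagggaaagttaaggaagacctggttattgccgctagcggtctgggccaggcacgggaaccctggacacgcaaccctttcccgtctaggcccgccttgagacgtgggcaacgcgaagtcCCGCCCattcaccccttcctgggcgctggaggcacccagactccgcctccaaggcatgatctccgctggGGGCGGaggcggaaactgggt
Fbln1: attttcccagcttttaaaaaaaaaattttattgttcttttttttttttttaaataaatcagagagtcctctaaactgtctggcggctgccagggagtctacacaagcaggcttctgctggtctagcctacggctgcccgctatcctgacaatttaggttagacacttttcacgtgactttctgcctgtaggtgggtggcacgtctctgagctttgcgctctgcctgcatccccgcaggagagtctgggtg

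The 6 letter patterns searched on both strands were the GC box GGGCGG, the TATA box TATAAA, the RUNX site TGTGGT, the TEAD site GGAATG, the AP-1 site TGANTCA and the MEF2 motif, whose factors bind class IIa histone deacetylases. The GC box was found in 8 of 11 member windows, in at least 1 window of each of the 6 matched members, and in 35.7% of all 32851 windows. The Fbln5 and Efemp2 windows shown hold 2 GC boxes each and the Fbln1 window shown none, whereas a second Fbln1 window holds 2 and a second Fbln5 window none. No member window held the TATA box (13.6% of all windows), the RUNX site (16.8%), the AP-1 site (7.81%) or the MEF2 motif (3.19%), and the TEAD site (14.7%) was found in 1 window, of Mfap2. The windows shown of Fbln5, Efemp2 and Fbln1 were 65.7%, 60.3% and 51.7% G or C, the other windows of these genes were 48.7% for Fbln5, 76.0% and 78.3% for Efemp2 and 64.0% for Fbln1, and the median over all windows was 52.7%. The order of Fbln1 and Fbln5 by GC boxes or GC content therefore turns with the window taken. The windows of Mfap2 overlap each other, as do those of Fbln1 and the Efemp2 windows not shown. The Fbln5 windows do not overlap, and the Efemp2 window shown does not overlap the others of its gene. A match is a description of letters only.

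**Figure D2:**
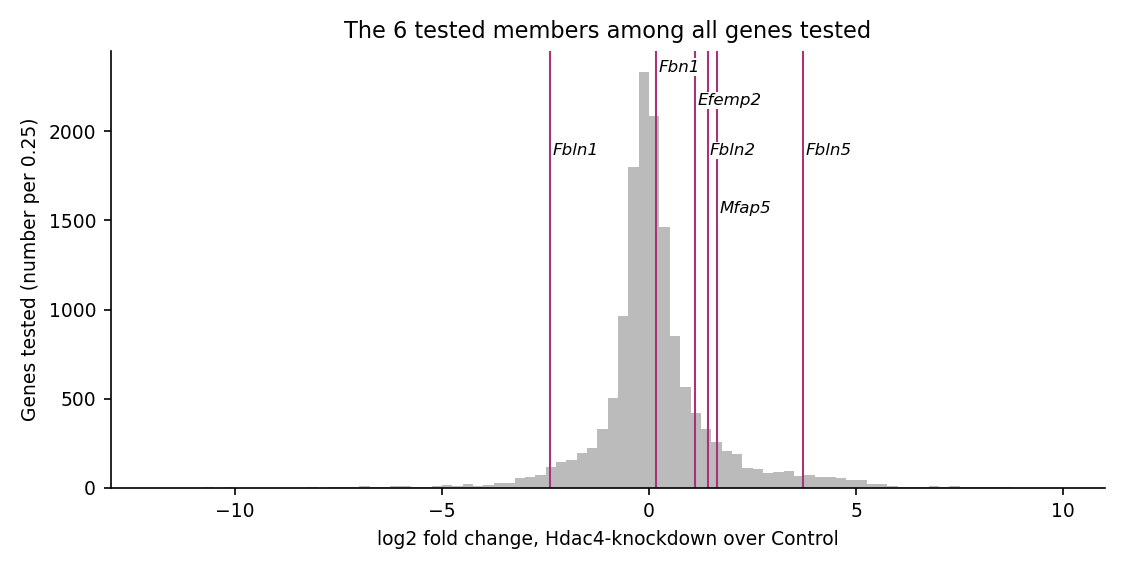
Number of genes per 0.25 of log2 fold change, Hdac4-knockdown over Control, for all 14531 genes tested (grey bars), with vertical lines at the 6 tested elastic fibre and microfibril genes. Fbln5 and Fbln1 lie in the upper and lower tails, with 3.20% of genes above Fbln5 and 2.97% below Fbln1, and Fbn1 lies near the centre.

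Other genes were taken from a list of 50, of which 42 were tested. The list holds genes that work with the members and, counted with them, 4 Mfap-named genes that code for other proteins. Of the 42 tested, 24 were called higher, 12 lower and 6 not called, beside 38.0% higher and 37.1% lower among all genes. Their median log2 fold change was 0.43, beside 0.01 over all genes. This list too was chosen with earlier results of these data known. Beyond a log2 fold change of 1, 17 were higher and 7 lower, beside 16.5% and 10.6% of all genes. The groups did not overlap in 36, a share near the 76.8% of all genes. Of the 42, 4 had fewer than 10 counts in some library and could pass the filter through 1 group. With at least 10 counts in every library, 23 were higher and 10 lower. The 38.0% higher and 37.1% lower among all genes also stand beside the counts of each role given below.

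Lysyl oxidases cross-link tropoelastin and collagen, and their changes split: of 5 tested, 2 were higher and 2 lower. Lox, whose product fibulin-4 carries to tropoelastin, rose from 322 ± 16.8 to 1272 ± 103 CPM (SD, n = 3), a log2 fold change of 1.98 (SE 0.0529) and an adjusted p of 2.08e-17. Loxl4 rose from 9.79 ± 0.950 to 64.6 ± 2.95 CPM (log2 fold change 2.72, SE 0.0718, adjusted p = 1.75e-17). Loxl2 went the other way, from 2382, 2667 and 2295 counts in Control to 7, 8 and 13 in knockdown libraries (log2 fold change -8.08, SE 0.126, adjusted p = 5.10e-21). Loxl1, the family member that binds fibulin-5, fell from 47.4 ± 3.15 to 17.3 ± 1.26 CPM (SD, n = 3), a log2 fold change of -1.45 (SE 0.07) and an adjusted p of 2.83e-13. The carriers Efemp2 and Fbln5 both rose, whereas their partner enzymes Lox and Loxl1 moved in opposite directions. Loxl3 had a log2 fold change of -0.03 (adjusted p = 0.503).

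Latent TGF-beta binding proteins are relatives of the fibrillins that sit on microfibrils. Of 4 tested, 3 were lower and Ltbp3 was higher, from 397 ± 4.54 to 814 ± 40.0 CPM (SD, n = 3). The log2 fold change of Ltbp3 was 1.04 (SE 0.0406, adjusted p = 9.47e-15) and that of Ltbp2, the lowest, was -0.71 (SE 0.0678, adjusted p = 1.32e-08). Ltbp4, which binds fibulin-5, had a log2 fold change of -0.40 (SE 0.0538) and an adjusted p of 1.40e-06.

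Of the other fibulins and emilins, 6 of 9 were tested, of which 4 were higher and 2 lower. Emilin1, an elastin-microfibril interface protein, rose from 24.2 ± 0.604 to 220 ± 14.3 CPM (SD, n = 3), a log2 fold change of 3.19 (SE 0.0552) and an adjusted p of 2.39e-20. Fbln7 fell from 7.27 ± 0.570 to 1.70 ± 0.442 CPM (log2 fold change -2.10, SE 0.169, adjusted p = 9.59e-10). Of the ADAMTS and ADAMTS-like proteins that bind fibrillin, 5 of 7 were tested, with 3 higher and 1 lower. Adamtsl4, which promotes fibrillin-1 microfibril assembly, rose from 24.2 ± 2.43 to 142 ± 8.09 CPM (log2 fold change 2.55, SE 0.0640, adjusted p = 8.21e-18). Adamts6, a protease that cuts microfibril components, fell from 58.4 ± 1.32 to 11.3 ± 0.730 CPM (log2 fold change -2.37, SE 0.0652, adjusted p = 3.38e-17).

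All 4 proteoglycans that bind fibrillin or elastin were called higher, as were 38.0% of all genes tested. Bgn, the gene of biglycan, rose from 59.5 ± 2.54 to 1659 ± 45.1 CPM (SD, n = 3), a log2 fold change of 4.80 (SE 0.0465) and an adjusted p of 1.60e-23. Hspg2, the gene of perlecan, rose least, from 703 ± 49.4 to 914 ± 42.7 CPM (log2 fold change 0.38, SE 0.0476, adjusted p = 6.21e-07). Of the enzymes that cut elastin or fibrillin, 6 of 9 were tested, with 5 higher and 1 lower. Ctsk, a collagenolytic and elastolytic cathepsin, rose from 2.59 ± 0.275 to 78.4 ± 4.0 CPM (log2 fold change 4.91, SE 0.0835, adjusted p = 1.78e-20). Ctsl fell from 1008 ± 17.5 to 561 ± 22.5 CPM (log2 fold change -0.85, SE 0.0387, adjusted p = 1.20e-13), with 1742 of its 6489 exon bases shared with other genes. Genes for both the assembly and the breakdown of the fibre were therefore among those called higher. Furin, whose protease processes profibrillin, had a log2 fold change of 0.06 (SE 0.0398) and an adjusted p of 0.15.

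Of 7 integrin subunits that bind fibrillin, fibulin-5 or MAGP-2, 4 were called higher and 1 lower. Itgb5, a partner of the alpha v subunit, rose from 123 ± 14.5 to 359 ± 14.0 CPM (SD, n = 3), a log2 fold change of 1.54 (SE 0.0608) and an adjusted p of 1.02e-14. Itgav, the alpha v subunit, had a log2 fold change of 0.18 (SE 0.0625) and an adjusted p of 0.0128 with overlapping groups, and was not called without Control replicate 1 (0.16, adjusted p = 0.0587), Control replicate 2 (0.16, adjusted p = 0.0642) or Hdac4-knockdown replicate 1 (0.12, adjusted p = 0.0766). A symbol that starts with Mfap does not make a microfibril gene: of 4 such genes that code for other proteins, 1 was higher and 2 lower. Mfap3l, the lowest of these, fell from 226 ± 9.09 to 52.9 ± 2.94 CPM (log2 fold change -2.09, SE 0.0501, adjusted p = 3.62e-18), against the rise of Mfap5. Mfap1b had a log2 fold change of 0.40 (SE 0.0926) and an adjusted p of 6.90e-04. Its value is uncertain because reads that also align to its near-identical copy Mfap1a may have been left out.

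Markers of other cell types were counted beside the members. Of 8 osteoblast markers, 4 had more than 3 counts in every Control library and 6 in every knockdown library, and their summed level was 3550.4 to 3584 CPM in Control and 12922 to 13534 CPM in knockdown libraries, most of the latter from Col1a1. The members of this list did not move together: Spp1, which made most of the Control sum at 3154 ± 30.9 CPM, fell to 2046 ± 36.1 CPM (SD, n = 3; log2 fold change -0.62, adjusted p = 1.82e-12), while Col1a1 rose from 338 ± 14.4 to 11015 ± 326 CPM (log2 fold change 5.03, adjusted p = 6.19e-24). Smooth muscle cells are rich in elastic fibres, and 5 of their markers were counted. Of these, 2 passed 3 counts in every Control library and 3 in every knockdown library. The 5 summed to 396 to 397 CPM in Control and 208 to 230 CPM in knockdown libraries. Most of this was Acta2, which fell from 312 ± 1.79 to 148 ± 10.7 CPM (SD, n = 3). Smtn also fell (log2 fold change -0.29), whereas Myh11 went from 2, 4 and 2 counts to 10, 9 and 14. Tagln had no more than 3 counts anywhere. Of its 1988 exon bases, 1349 are shared with other genes, and reads shared between genes were left out, so its level may be underestimated. Of 4 chondrocyte markers 2 passed 3 counts in every library of each group, with Acan and Col9a1 at no more than 3. The sum was 125 to 128 CPM in Control and 168 to 185 CPM in knockdown libraries. In it Sox9 was not called (log2 fold change 0.02, adjusted p = 0.749) and Col2a1 rose (log2 fold change 5.93, adjusted p = 8.21e-20). Of 4 tendon or fibroblast markers 2 passed in each group, with Tnmd at no more than 3 counts, and the sum was 39.3 to 42.3 CPM and 24.4 to 28.8 CPM, in which Scx fell (log2 fold change -1.36, adjusted p = 2.09e-10) and Mkx rose (log2 fold change 3.44, adjusted p = 1.47e-13). Of 4 adipocyte markers 1 passed in each group, with Adipoq and Plin1 at no more than 3 counts, and the sum was 27.3 to 29.6 CPM and 3.07 to 4.52 CPM. This sum was mostly Pparg (log2 fold change -3.07). Of 4 neural markers 2 passed in Control and 1 in knockdown libraries, with Elavl3 and Snap25 at no more than 3 counts, and the sum was 405 to 421 CPM and 71.7 to 82.6 CPM. In it Tubb3 fell (log2 fold change -1.10) and Nefl went from 7696, 7175 and 7347 counts to 2, 1 and 0. Endothelial markers summed to 0.262 to 0.421 CPM in Control and 2.81 to 3.16 CPM in knockdown libraries, with 1 and 2 of 4 past 3 counts, and blood markers to 1.40 to 2.49 CPM and 1.96 to 2.42 CPM, with 1 of 4 in each group and Adgre1 and Cd3e at no more than 3. Among the endothelial markers, Pecam1 had 6, 7 and 6 counts in Control and 72, 75 and 75 in knockdown libraries. The sums other than that of blood differed between the same groups as Fbln2, Fbln5, Efemp2, Mfap5 and Fbln1, and their part in the changes of the members was not tested.

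The 6 tested members lie on 5 chromosomes, Fbln2 and Mfap5 both on chromosome 6. Of the 36 genes that lie nearest to them among those tested, 3 on each side, 18 were called higher and 11 lower. Among all genes tested, these shares were 38.0% and 37.1%.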

How the data were processed

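RNA from MC3T3-E1 cells was sequenced in 3 Control and 3 Hdac4-knockdown libraries, grouped by the sample labels. The authors deposited raw counts of reads per Ensembl gene without normalization. The submitters' processing notes name FastQC, STAR 2.7.3a, HTSeq 0.12.4 and mm10, and the annotation release is not given in the sources used here. The summary lines that end each table (14.3% to 15.0% of all counts, of which reads shared between genes were 5.84% to 6.51%) were left out. GENCODE M21 (GRCm38), which holds 53706 of the 53801 identifiers, gave symbols, exon lengths and shared exon bases. The exon length of a gene was that of all its annotated exons joined over transcripts.

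The test across genes was run in R 4.3.3 by edgeR 4.0.16 (TMM, filterByExpr, quasi-likelihood F test, Benjamini-Hochberg adjustment over 14531 genes). SE was the size of the log2 fold change over the root of F. Exact permutation tests were two-sided, and log2 ratios used a pseudocount of 0.5 counts. The planned ratios of Fbn2 to Fbn1 and Mfap5 to Mfap2 were not tested, because Fbn2 and Mfap2 were near 0. The edgeR test was tested on simulated data. Alternatives were other scalings, filters and thresholds, DESeq2 1.42.0, limma-voom (limma 3.58.1), the replicate block and leaving out each library. Protein features were not analysed here.

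All 10 members are named. Of the other genes, those named by rule were, in each role, the called genes with the largest and the smallest log2 fold change among those with at least 100 counts on average; Lox, Loxl1, Loxl3, Ltbp4 and Furin, and the markers given with values, were named after their values were seen. The members and lists were chosen with earlier results of these data known.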

Additional observations from a re-analysis of the deposited data

How the results depend on the processing

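Over scaling (DESeq2 size factors, library size alone, upper quartile), filters, DESeq2, limma-voom, the replicate block and the leaving out of each library, the 6 tested members kept their direction and their calls. The log2 fold change ranged from 0.12 to 0.25 for Fbn1, from -2.46 to -2.31 for Fbln1, from 1.38 to 1.5 for Fbln2, from 3.61 to 3.8 for Fbln5, from 1.07 to 1.19 for Efemp2 and from 1.54 to 1.73 for Mfap5. Fbn1 is no longer called with a threshold of 0.5, which leaves 4 members higher. Without the filter 6 were higher, because Fbn2 was then tested (edgeR adjusted p = 0.0256, DESeq2 adjusted p = 0.0517, from 0 against 11 counts in all); Eln, Mfap2 and Mfap4 were not called (edgeR adjusted p = 0.271, 0.723 and 0.364). Of the 50 other genes listed, 7 were lower beyond a log2 fold change of 1 in place of 12, since fewer pass that threshold. When 1 library was left out, 22 to 25 of them were higher. Furin was called higher with library size alone (0.12), upper quartile scaling (0.15) or at least 10 counts in every library (0.10), and Loxl3, not called, went to 0.03, 0.06 and 0.01 under these 3 settings; the cause was not tested. The replicate numbers did not pair the samples (correlations of same-numbered libraries -0.00523, 0.0956 and 0.0206), and with the replicate block 5 members were higher and 1 lower, with Fbn1 at 0.16 (adjusted p = 0.00126). Depth limits Eln, Fbn2, Mfap2 and Mfap4, and shared exon bases limit Fbn1.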
